A study of Mus musculus with 1536 samples.

Results

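The potassium channel subunit genes of mouse raphe serotonin neurons were described. Members were all genes whose symbol is Kcn followed by a letter code and a number, which 92 genes of the table met, and 84 of them had at least 1 read in at least 3 cells. They were 84 of the 25522 genes that passed this minimum and of the 53263 genes listed. The 8 left out were Kcna7, with a read in 1 cell, Kcnj8 and Kcnmb1, each in 2 cells, and Kcne4, Kcnj1, Kcnj15, Kcnk18 and Kcnn4, each in 0 cells.

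The cells came from C57BL/6J mice 40 to 45 days old in which a Cre driven by Sert, the serotonin transporter gene, switched on the tdTomato reporter of the Ai14 line (the labelled genotype is Sert-tdTomato-Cre crossed with Ai14). There were 2 dissections, and no cell was treated: 1 of the principal dorsal raphe (pDR, labelled Principal DR) and 1 of the whole dorsal raphe together with the median raphe (labelled All DR; the median raphe is named in the series' design and not in the label), called the mixed dissection here. Single tdTomato-positive cells were sorted into plates, so any cell in which the Cre had ever been active could be taken, and each was made into 1 Smart-seq2 library. The table held 290 pDR cells on 5 plates and 709 cells of the mixed dissection on 11 plates. The labels tie no cell to an animal, so each dissection is 1 sample, no test was made, and the spread between plates is given in place of a replicate error. All 999 cells had reads of Tph2, which encodes the serotonin-synthesizing enzyme, and of Fev, and 99.8% had reads of the transporter gene Slc6a4. The median cell of the pDR held 755926 reads assigned to genes and that of the mixed dissection 869546, and single cells ranged from 96834 to 2780443.

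Potassium channels let potassium leave the cell and thereby set the resting potential, the shape of the action potential and the interval between spikes. Pore-forming (alpha) subunits combine with each other, with silent subunits that form no channel alone, and with auxiliary subunits that alter gating or traffic. Serotonin neurons are known for slow, regular firing with a long afterhyperpolarization carried by small-conductance calcium-activated (SK) channels, and for G protein-gated inward rectifiers (GIRK) that are opened by the serotonin autoreceptor Htr1a.

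The 84 genes comprised 29 voltage-gated alpha subunits (7 of the Kv1 or Shaker class, 2 Kv2, 4 Kv3, 3 Kv4, 5 Kv7 and 8 of the EAG, ERG and ELK class), 10 silent modifiers, 12 inward rectifiers, 13 two-pore-domain leak channels (K2P), 7 calcium- or sodium-activated channels and 13 auxiliary subunits. Of the cell sets compared, cells positive for Zeb2 (at least 1 read), which encodes a zinc-finger repressor, had the most members that differed from the other cells at least 2-fold with the same direction on at least 75% of plates. There were 14 such members, 4.76% of the members higher and 11.9% lower. Among all 25522 genes 1.22% and 2.77% were, together also the most of any comparison. Of the 14 members, 7 met this rule under every processing alternative tried: Kcna4 and Kcnh8 were higher, and Kcnab1, Kcnc4, Kcng4, Kcnh7 and Kcnip1 were lower. For that reason the 250 bases before their transcript starts were searched for CACCTG on either strand (CAGGTG on the other), the E-box to which Zeb proteins are known to bind. RefSeq (GRCm38.p6) lists 11 starts for these 7 genes, and 3 of the 11 windows (27.3%) held the letters. Among all 32851 windows of that length 17.2% did, and among the 84 windows of the 59 members found in RefSeq 26.2% did. A match is a description of the letters and not of a binding site. The 3 windows with a match and that of Kcnh8, which has none, are printed 5′ to 3′ on the gene's strand, with each match in capitals.
Kcna4, plus strand, chr2:107290339-107290588: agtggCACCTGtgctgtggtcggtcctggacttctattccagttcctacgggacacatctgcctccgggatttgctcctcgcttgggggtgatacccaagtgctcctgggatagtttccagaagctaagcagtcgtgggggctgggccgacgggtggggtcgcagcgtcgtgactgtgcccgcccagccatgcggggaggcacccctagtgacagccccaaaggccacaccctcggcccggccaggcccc
Kcnc4, minus strand, a start inside the gene, chr3:107458899-107459148: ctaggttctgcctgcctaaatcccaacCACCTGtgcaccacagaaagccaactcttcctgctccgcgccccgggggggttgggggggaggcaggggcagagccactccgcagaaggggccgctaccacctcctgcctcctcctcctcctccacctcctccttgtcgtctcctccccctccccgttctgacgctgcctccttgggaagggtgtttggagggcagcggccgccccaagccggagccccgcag
Kcnip1, minus strand, a start inside the gene, chr11:33843687-33843936: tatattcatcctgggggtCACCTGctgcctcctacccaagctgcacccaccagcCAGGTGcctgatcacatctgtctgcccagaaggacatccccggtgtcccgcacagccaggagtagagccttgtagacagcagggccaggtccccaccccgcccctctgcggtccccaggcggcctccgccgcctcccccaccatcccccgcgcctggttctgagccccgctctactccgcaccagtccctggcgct
Kcnh8, plus strand, chr17:52602459-52602708: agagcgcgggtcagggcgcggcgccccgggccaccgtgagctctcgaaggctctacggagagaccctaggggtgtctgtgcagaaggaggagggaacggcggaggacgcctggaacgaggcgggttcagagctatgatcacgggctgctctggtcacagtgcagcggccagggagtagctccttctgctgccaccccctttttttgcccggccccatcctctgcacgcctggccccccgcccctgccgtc
The Kcna4 match began 245 bases before the start, that of Kcnc4 223 bases before it, and those of Kcnip1 232 and 196 bases before it. In GENCODE M21 the whole genes lie at chr2:107290639-107298502 (Kcna4), chr3:107438303-107459552 (Kcnc4), chr11:33629339-33993152 (Kcnip1), chr17:52602709-52979194 (Kcnh8) and chr3:65109384-65378223 (Kcnab1).

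Levels are in CPM, a gene's reads scaled to the same total of gene reads in every cell. The members together had 1074 CPM in the mean cell. The sum of all members had plate means of 1103 to 1183 CPM in the pDR and 964 to 1098 CPM in the mixed dissection, so the plates were only just apart. Kcnk9 alone had a mean over plates of 206 CPM in the pDR and 102 CPM in the mixed dissection. By their means over plates, 39 members were higher in the pDR and 45 lower, so the sum does not describe a shift of the members as a group. The 10 members with the most CPM gave 54.2% of the sum and the 20 with the most gave 78.2%. After thinning every cell to 250000 reads, which left out 1 pDR cell and 8 cells of the mixed dissection, a cell had reads of a median of 29 members (quartiles 27 and 32). The median was 30 members in the pDR and 29 in the mixed dissection, and the plate means lay between 23.8 and 31.7. In the mixed dissection it was 28 members in Zeb2-positive against 30 in Zeb2-negative cells, 28 against 30 for Gad, 28 against 29 for Trh, 29 against 30 for Irx2 and, the other way, 30 against 28 for Slc17a8. In the pDR it was 30 in positive and negative cells for Gad and Trh, and 30 against 29 for Slc17a8. Without thinning the median was 33 members.

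Of the 84 members, 31 had a read in at least 50% of the cells, 23 in at least 10% but fewer than 50%, and 30 in fewer than 10%. For 2 members, Kcnk7 and Kcnk15 (named after their values were seen), more than 50% of the summed CPM came from 1 cell. Levels of different genes are compared as CPM per kb of exon (all exons of a gene merged), while shares of the summed CPM and values in CPM alone take no account of gene length. They are means over all cells of both dissections unless a dissection is named, and the order of genes can differ between the dissections. With the length of the longest transcript in place of the merged exons, 9 of the 10 highest genes were still among the 10 highest.

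**Figure D1:**
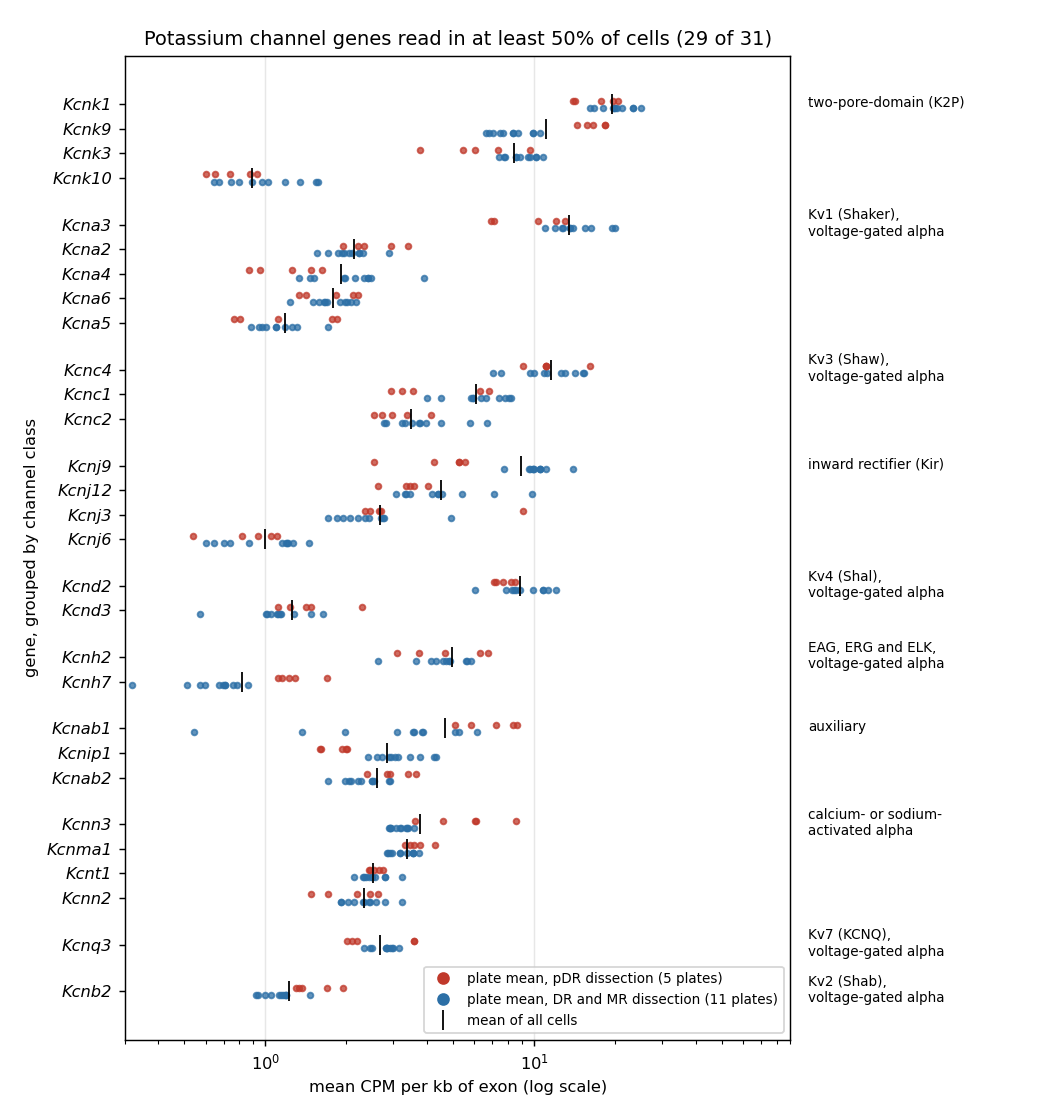
Mean CPM per kb of exon (horizontal axis, log scale) of 29 of the 31 members read in at least 50% of cells, grouped by channel class. Each point is the mean of 1 plate, red for the 5 pDR plates and blue for the 11 plates of the mixed dissection, and the black bar is the mean of all cells. Kcnk1 has the highest mean of all cells, the plates of the dissections separate for Kcnk9 and Kcnj9, and 1 pDR plate stands apart for Kcnj3.

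The leak channels took 21.9% of the members' summed CPM. Kcnk1, a weakly conducting two-pore channel, was the highest member at 19.5 CPM per kb (17.3 in the pDR and 20.4 in the mixed dissection, the highest in each), and 89.6% of cells had a read (exact Clopper-Pearson 95% interval 87.5 to 91.4%; intervals cover counting error only). The acid-sensitive leak channels Kcnk9 and Kcnk3, which stabilize the resting potential, were at 11.1 and 8.46 CPM per kb. Their order differed between the dissections, with 16.7 and 6.45 CPM per kb in the pDR and 8.32 and 9.02 in the mixed dissection. The other 10 K2P genes were at or under 1.17 CPM per kb, the value of Kcnk2, a stretch- and lipid-sensitive channel.

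Delayed rectifiers and A-type channels were present from several classes. Kcna3, of the Kv1 class that limits repetitive firing, was at 13.5 CPM per kb and read in 92.2% of cells, whereas Kcna2 and Kcna4 were at 2.14 and 1.92 CPM per kb. In the Kv3 class, whose fast channels shorten the spike, Kcnc4 was at 11.6, Kcnc1 at 6.10 and Kcnc2 at 3.49 CPM per kb. The Kv4 genes carry the subthreshold A-type current that delays the next spike. Kcnd2 was at 8.84 CPM per kb, above Kcnd3 at 1.25 and Kcnd1 at 0.820.

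The auxiliary KChIP genes, whose products bind Kv4 channels, included Kcnip1 (2.83 CPM per kb), Kcnip2 (2.70) and Kcnip4 (2.46), whose order differed between the dissections (1.83, 1.65 and 1.95 CPM per kb in the pDR), and Kcnip3, which was below them in both (0.306). Kcnab1, which encodes a beta subunit of Kv1 channels, was at 4.68 CPM per kb but was read in only 53.9% of cells, so its level varied widely between cells. The Kv2 delayed rectifier Kcnb2 was at 1.22 CPM per kb. Among the silent modifiers that pair with Kv2, Kcng4 was highest in both dissections (2.62 CPM per kb over all cells). Kcns2 was at 1.22 CPM per kb in the pDR and 1.89 in the mixed dissection, Kcnf1 at 1.68 and 1.33, and 0 of the 10 were read in 50% of cells. The Kv7 genes Kcnq3 and Kcnq5, which contribute to the M current, were at 2.68 and 0.354 CPM per kb. Among the EAG, ERG and ELK genes the ERG channel Kcnh2 was highest at 4.96 CPM per kb, and Kcnh7 and Kcnh6 were at 0.821 and 0.619.

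Of the GIRK genes, Kcnj9 was at 8.92 CPM per kb and read in 87.1% of cells, Kcnj3 at 2.68, Kcnj6 at 0.994 and Kcnj5 at 0.214. For Kcnj3, 31.1% of the exon length lies under a gene on the other strand, and counts without strand cannot tell the reads of the pair apart. Kcnj12, a strong inward rectifier, was at 4.51 CPM per kb. The SK genes Kcnn3, Kcnn2 and Kcnn1 were at 3.76, 2.34 and 0.456 CPM per kb. Kcnma1, the large-conductance BK channel, was at 3.35 and the sodium-activated Kcnt1 at 2.52 CPM per kb, and Kcnma1 was read in 98.5% of cells.

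Some members are better known from other cells. Kcnj10 and Kcnj16, which form glial channels, were read in 5.81% and 28.8% of cells, Kcnj13, an epithelial channel, in 4.70% (with 49.1% of its exons under another gene) and Kcnk13, known from microglia, in 9.81%. The summed level of the 6 oligodendrocyte markers had plate means of 18.7 to 114 CPM in the pDR and 44.4 to 1565 CPM in the mixed dissection, with Mbp the most abundant of them, while Mog was read in 13 of the 999 cells. The astrocyte markers summed to plate means of 0.425 to 5.62 CPM and 0.629 to 39.3 CPM, with Gja1 the most abundant. In the mixed dissection both lists were highest on plate SER55. The microglial, endothelial and pericyte lists did not exceed 22.5 CPM on any plate.

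Of the partner genes of these channels, Dpp6 had 247 CPM and Cntnap2 127 CPM, and each was read in 99.7% of cells. Dpp6 and Dpp10 (34.6 CPM) encode Kv4 partners, Cntnap2 a protein that clusters Kv1 channels, and Amigo1 (21.8 CPM) a Kv2 partner. Htr1a was at 115 CPM and read in 94.5% of cells. Abcc8, the sulfonylurea receptor that pairs with Kcnj11, was at 8.55 CPM, whereas Abcc9 and Lrrc52 had no read.

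The dissections were compared first. A gene was called when its mean CPM + 1 over plates differed at least 2-fold (a log2 ratio of at least 1 in size) and the plate means of the dissections did not overlap. Kcnk9, Kcnh3 and Kcns3 were called higher in the pDR and Kcnj9 and Kcng2 lower. These were 3 and 2 of the 84 members, where 0.98% of all 25522 genes were called higher and 0.525% lower. None of these member calls, Kcnh3 and Kcns3 included, held under every processing alternative. Without regard to fold, the plate means did not overlap for 5 members that were higher and 3 that were lower in the pDR, against 2.43% and 2.54% of all genes. The median log2 ratio was −0.03 over the members and 0.01 over all genes.

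Kcnk9 had plate means of 225, 227, 194, 177 and 204 CPM on the pDR plates and of 81.7 to 130 CPM (median 102) on the plates of the mixed dissection. All 5 pDR plates lay above all 11 others. The log2 ratio was 1.00, at the limit itself, and it was 0.96 to 0.99 without any 1 of 7 plates (SER12, SER13, SER48, SER50, SER55, SER56 or SER67). Kcnj9 went the other way, with 23.8, 22.6, 22.5, 10.9 and 18.2 CPM on the pDR plates against 33.3 to 59.7 CPM (median 42.8), a log2 ratio of −1.13. Without the pDR plate at 10.9 CPM (SER39) the ratio was −0.99, just short of a call. Of the other GIRK genes, Kcnj6 had a mean of 6.81 CPM in the pDR and 7.65 in the mixed dissection with plates that overlapped. Kcnj3 had 12.8, 14.1, 12.2, 47.3 and 13.8 CPM on the pDR plates, so that 1 plate decided its mean of 20.0 against 13.1 CPM.

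Kcnh3, an ELK channel, was near the detection limit. Its pDR plate means were 1.30, 1.47, 1.70, 1.63 and 1.66 CPM, and those of the mixed dissection 0 to 0.587 CPM, with reads in 13.8% and 3.10% of cells. Kcns3, a silent modifier, had means of 2.02 and 0.325 CPM and Kcng2, another, of 0.211 and 1.53 CPM. Both were also near the detection limit, with reads of Kcns3 in 6.21% and 1.97% of cells and of Kcng2 in 5.52% and 12.0%. Their plates were only just apart. The lowest pDR plate of Kcns3 had 0.909 CPM and the highest mixed plate 0.869 CPM. For Kcng2 the highest pDR plate had 0.630 CPM and the lowest mixed plate 0.692 CPM. Without plate SER67 the log2 ratio of Kcng2 was −0.99 and its call was lost. The SK gene Kcnn3, the ERG gene Kcnh7 and the KChIP gene Kcnip1 had plates that did not overlap but changed less than 2-fold, with log2 ratios of 0.85, 0.92 and −0.77. For Kcnn3 the pDR plates were at 37.8, 48.0, 89.8, 63.0 and 63.4 CPM and the others at 30.2 to 37.2 CPM, a gap between the sets that is far smaller than the spread within the pDR.

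Other measures moved with the dissection. The 6 immediate-early genes summed to plate means of 16.4 to 241 CPM in the pDR and 173 to 301 CPM in the mixed dissection, and the part of this in the members' values was not tested. Dissection and plate cannot be told apart. Leaving out the Zeb2-positive cells, 147 of 709 in the mixed dissection and 3 of 290 in the pDR, was tried after seeing the data. The log2 ratio was then 0.86 for Kcnk9 and −1.27 for Kcnj9, and 3 members were called (Kcnh3, Kcns3 and Kcnj9). For this setting the share of all genes called was not counted.

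**Figure D2:**
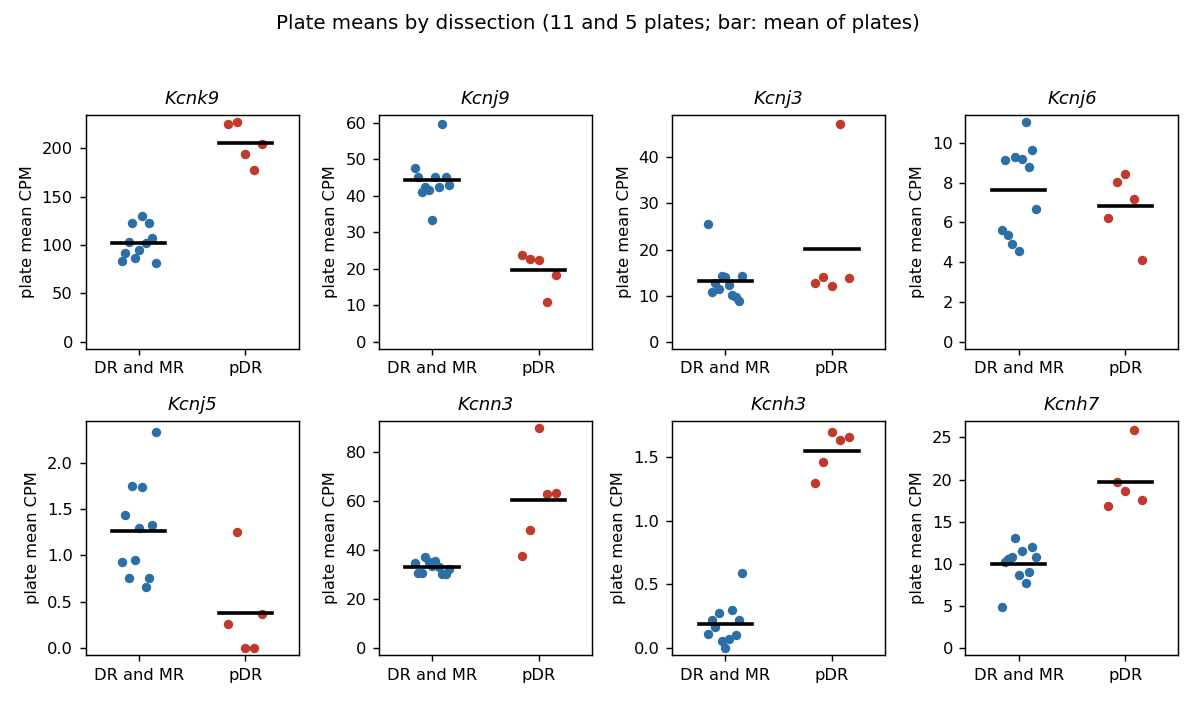
Plate mean CPM (vertical axis, from 0) of 8 members on the 11 plates of the mixed dissection (blue) and the 5 pDR plates (red); bars are means of the plates. The pDR plates of Kcnk9 and Kcnh3 lie above all others and those of Kcnj9 below, whereas those of Kcnj6 overlap and Kcnj3 has 1 high plate.

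Cells with and without a marker were then compared within each plate, over plates with at least 5 cells of each kind. Plates were weighted equally, and a gene was called when the ratio of mean CPM + 1 was at least 2-fold and at least 75% of the plates had its direction. The values given for positive and negative cells are means over plates, with the lowest, median and highest plate where they are listed. Most cells enter several comparisons, so the comparisons are not independent of each other. In all, 25 members were called in at least 1 of the 8 marker comparisons and 59 in none. No matching share of all genes over the 8 together was counted. The 25 are therefore a description and not a comparison with other genes.

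**Figure D3:**
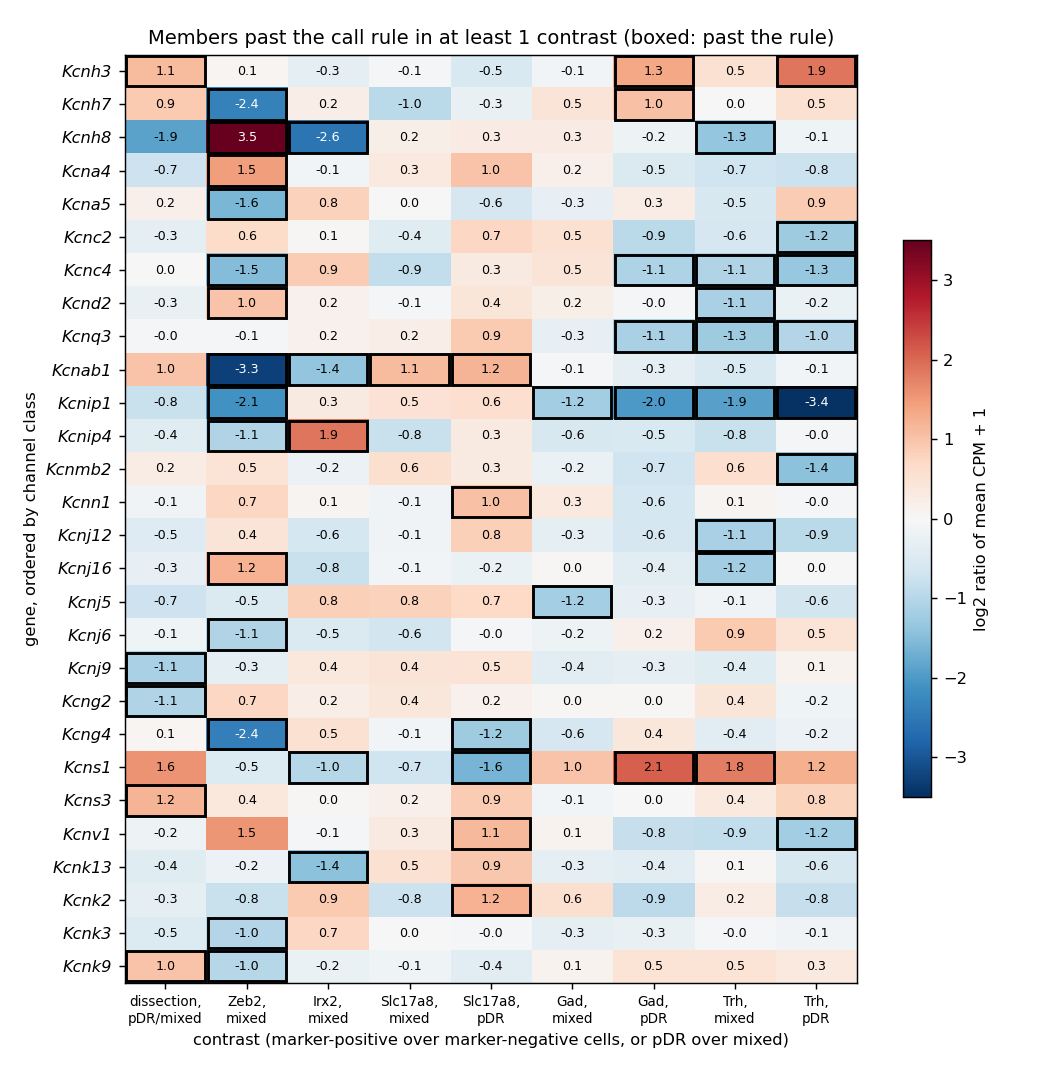
Log2 ratio of mean CPM + 1 (colour and printed value; red higher, blue lower) for the 28 members called in at least 1 of the 9 comparisons (columns); boxes mark the calls. The Zeb2 column holds the most boxes (14), and Kcnip1 is boxed and lower in 5 columns. The Zeb2 comparison also called the most of all genes, 1.22% higher and 2.77% lower.

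In the mixed dissection 147 of 709 cells (20.7%) were Zeb2-positive, with plate shares of 10.0 to 57.9%, and all 11 plates entered. The ELK gene Kcnh8 and the A-type genes Kcna4 and Kcnd2 were higher in these cells, and the leak genes Kcnk9 and Kcnk3, the KChIP genes Kcnip1 and Kcnip4 and the beta subunit Kcnab1 were lower. In numbers 4 members were called higher and 10 lower, 4.76% and 11.9% of the members, where 1.22% and 2.77% of all genes were. The median log2 ratio was −0.05 over the members and −0.01 over all genes.

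Kcnh8 had 5.54 to 22.8 CPM (median 13.5) in positive cells and 0 to 0.835 CPM (median 0.213) in negative cells. No plate overlapped, and the log2 ratio was 3.51, with an SD of 0.67 between plates. A read was present in 100 of 147 positive cells (68.0%, interval 59.8 to 75.5%) and in 2.85% of negative cells (interval 1.64 to 4.58%). After thinning the shares were 61.9% and 1.81%. In the pDR, where only 3 cells were Zeb2-positive, Kcnh8 had a mean of 0.307 CPM and was read in 5.17% of cells.

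Kcna4 and Kcnd2 were higher as well. Kcna4, an inactivating Kv1 channel, had 11.3 to 37.2 CPM (median 22.9) in positive and 4.39 to 13.4 CPM (median 7.26) in negative cells, a log2 ratio of 1.47 that was above 0 on 11 of 11 plates. Kcnd2 had 40.1 to 190 CPM (median 67.6) and 25.7 to 60.5 CPM (median 39.9), a log2 ratio of 1.01 that was above 0 on 9 of 11 plates. The inward rectifier Kcnj16 was called higher with 7.74 against 2.79 CPM. The oligodendrocyte markers summed to 219 CPM in positive and 301 CPM in negative cells, although the median log2 ratio of the 6 genes was 1.82. The plates of this sum ran from 23.6 to 1608 CPM and from 40.9 to 2419 CPM. The astrocyte markers summed to 2.42 and 11.2 CPM. The part of both lists in the Kcnj16 value was not tested beyond leaving out cells rich in Mbp. The Kcnd2 call was lost without any 1 of 4 plates (SER50, SER52, SER60 or SER63), at log2 ratios of 0.80 to 0.97.

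Kcnab1 showed the largest decrease. Its plate means were 0 to 19.6 CPM (median 0.260) in positive and 8.37 to 62.0 CPM (median 36.3) in negative cells, a log2 ratio of −3.28 that was below 0 on 11 of 11 plates. It was read in 4.76% of positive cells (interval 1.94 to 9.57%) and in 54.8% of negative cells (interval 50.6 to 59.0%). On 1 plate its positive cells reached 19.6 CPM, above the negative cells of the lowest plate, so the sets overlap in range while each plate had the same direction. Without that plate (SER51) the log2 ratio was −4.09.

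Kcng4 (1.46 against 11.9 CPM), Kcnh7 (1.66 against 12.8 CPM) and Kcnip1 (4.93 against 24.6 CPM) were lower without overlap of the plates, with log2 ratios of −2.40, −2.37 and −2.11. Kcna5, Kcnc4, Kcnip4 and Kcnj6 followed with log2 ratios of −1.60, −1.53, −1.06 and −1.06. The Kcnip4 value rests on mixed plates, since 2 of 11 went the other way and its positive cells ranged from 0.290 to 25.3 CPM. The leak genes differed by less. Kcnk9 had 38.7 to 77.5 CPM (median 51.7) in positive and 87.3 to 141 CPM (median 114) in negative cells, with a log2 ratio at the limit of a call and no overlap, and Kcnk3 had a log2 ratio of −1.03 on 9 of 11 plates. Leaving out 1 plate ended the call of Kcnip4 for 7 plates (SER48, SER50, SER51, SER56, SER63, SER64 and SER67, at −0.80 to −0.99), of Kcnk9 for 6 (SER52, SER55, SER57, SER60, SER63 and SER64, at −0.96 to −1.0), of Kcnk3 for 5 (SER48, SER51, SER56, SER57 and SER67, at −0.89 to −0.99) and of Kcnj6 for 1 (SER50, at −0.99).

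The SK and BK genes and Kcnq3 were not among the calls. In Zeb2-positive and negative cells Kcnn2 had 20.4 and 17.2 CPM, Kcnn3 30.2 and 33.2 CPM, Kcnma1 53.9 and 54.8 CPM, and Kcnq3 39.7 and 41.3 CPM. The GIRK gene Kcnj6 was called lower (3.60 against 8.56 CPM), while Kcnj3 (20.9 against 10.9 CPM) and Kcnj9 (36.9 against 46.8 CPM) were under 2-fold. Htr1a had 171 and 96.1 CPM and was above on 11 of 11 plates with a log2 ratio of 0.82. Of the 11 partner genes 0 were called higher and 2 lower, Dpp10 (10.5 against 32.0 CPM, a log2 ratio of −1.53) and the BK partner Lrrc55 (3.21 against 7.60 CPM).

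**Figure D4:**
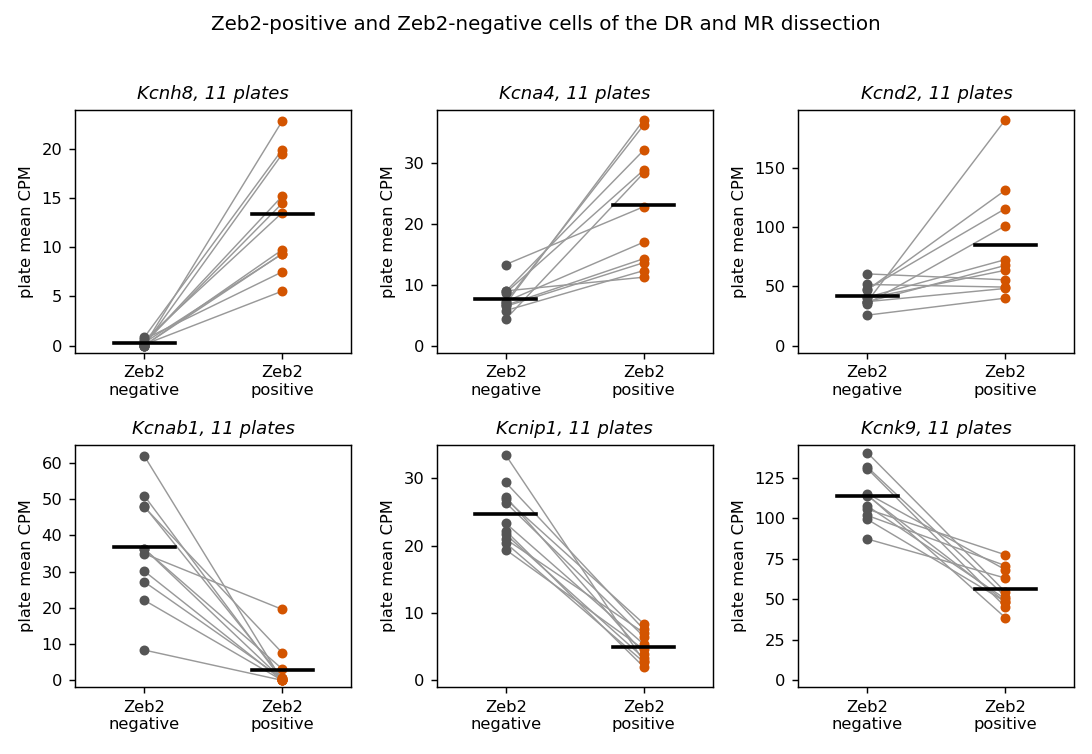
Plate mean CPM (vertical axes, from 0) of 6 members in Zeb2-negative and Zeb2-positive cells of the mixed dissection. Each line joins the 2 means of 1 of the 11 plates and bars are means of plates. Lines rise on 11 plates for Kcnh8 and Kcna4 and on 9 for Kcnd2, and fall on 11 plates for Kcnab1, Kcnip1 and Kcnk9.

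Irx2, which encodes a homeobox protein, marked 154 of 709 cells (21.7%) of the mixed dissection, and 5 cells had both Zeb2 and Irx2. Here 1 member was called higher and 4 lower, 1.19% and 4.76% of the members against 0.36% and 0.835% of all genes. Kcnip4 was higher, with 7.17 to 42.1 CPM (median 21.2) in positive and 1.86 to 9.87 CPM (median 5.16) in negative cells. Its log2 ratio was 1.87 and above 0 on 11 of 11 plates, where it was −1.06 in the Zeb2 comparison.

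Kcnh8 had no read in the 154 Irx2-positive cells, which allows a share of up to 1.95% of cells with a read (a limit on detection, not on cells that express the gene), and was read in 20.9% of negative cells. The negative cells hold nearly all Zeb2-positive cells, which carry most of the Kcnh8 reads, so the Zeb2 and Irx2 comparisons share this value. Kcnab1 (12.6 against 34.2 CPM, log2 ratio −1.37), Kcnk13 (0.101 against 2.00 CPM) and Kcns1 (1 read in the 154 positive cells, and in 6.85% of negative cells) were also lower. For Kcnab1 9 of 11 plates had the direction and the SD of the log2 ratio between plates was 2.15. Kcns1 lost its call without any 1 of 5 plates (SER50, SER51, SER55, SER57 or SER63), at −0.90 to −0.99. The oligodendrocyte list summed to 204 CPM in positive cells (plates at 34.5 to 1098 CPM) and 235 CPM in negative cells (34.5 to 1911 CPM). The astrocyte list summed to 10.5 CPM (0 to 93.1 CPM) and 5.82 CPM (0.684 to 48.7 CPM). The part of both lists was not tested beyond leaving out cells rich in Mbp. Of the partner genes 0 were called either way.

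Slc17a8, the vesicular glutamate transporter gene of glutamate-releasing serotonin neurons, marked 131 of 290 pDR cells (45.2%) and 518 of 709 cells of the mixed dissection (73.1%). In the pDR 4 members were called higher and 2 lower, against 0.972% and 0.791% of all genes. The median log2 ratio of the members was 0.17 and that of all genes 0. Kcnab1 had 108, 60.5, 78.4, 129 and 65.4 CPM in positive and 44.7, 31.9, 41.5, 38.9 and 33.9 CPM in negative cells of the 5 plates. The sets did not overlap, and the log2 ratio was 1.19.

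Kcnk2 was also higher on 5 of 5 plates without overlap (7.36 against 2.57 CPM, log2 ratio 1.23). The SK gene Kcnn1 (2.94 against 0.943 CPM) and the silent modifier Kcnv1 (2.42 against 0.556 CPM) were higher at low levels, Kcnv1 on 4 of 5 plates. Kcnn1 lost its call without SER25 or SER39 (0.96 and 0.91) and Kcnv1 without SER39 or SER40 (0.97 and 0.71). For Kcnk2, 12.2% of the exon length lies under a gene on the other strand. The silent modifiers Kcns1 (1.47 against 6.60 CPM, log2 ratio −1.62) and Kcng4 (5.19 against 13.7 CPM, log2 ratio −1.25) were lower on 5 of 5 plates, with ranges that overlapped.

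In the mixed dissection 1 member was called higher and 0 lower by Slc17a8, against 0.227% and 0.227% of all genes. It was again Kcnab1, with 34.8 against 15.7 CPM and a log2 ratio of 1.10 on 9 of 11 plates. The values of the plates overlapped (0.583 to 58.7 and 0 to 39.3 CPM), and the call was lost without SER60, SER63 or SER52, at 0.99, 0.99 and 1.00, the last just under the limit. Thinning and a pseudocount of 5 CPM each ended the call as well. The oligodendrocyte list summed to 99.6 CPM in positive and 581 CPM in negative cells. Its plates ran from 47.1 to 293 CPM and from 2.15 to 5651 CPM, so high plates weigh heavily in the mean of the negative cells. Without cells rich in Mbp the Kcnab1 ratio was 1.48. Between the dissections Kcnk2 differed in sign, with a log2 ratio of −0.75 in the mixed dissection, a difference that was not tested.

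Gad-positive cells (a read of Gad1 or Gad2, the enzymes that make GABA) were 183 of 290 pDR cells (63.1%) and 164 of 709 cells of the mixed dissection (23.1%). In the pDR 3 members were called higher and 3 lower, 3.57% each, against 1.29% and 0.838% of all genes. The silent modifier Kcns1 had 10.4, 10.9, 1.15, 2.68 and 6.70 CPM in positive and 1.91, 1.62, 0, 0.181 and 0 CPM in negative cells, a log2 ratio of 2.08. It was higher on each plate, although the lowest positive plate was under the highest negative one. It was read in 41.5% of positive and 9.35% of negative cells. The ELK gene Kcnh3 (2.35 against 0.321 CPM) and the ERG gene Kcnh7 (25.1 against 11.8 CPM) were higher without overlap. Without plate SER39 the log2 ratio of Kcnh7 was 0.67 and its call was lost.

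Kcnip1 had 5.56, 5.01, 3.85, 1.57 and 7.63 CPM in Gad-positive and 24.3, 25.9, 18.3, 27.1 and 14.1 CPM in Gad-negative pDR cells, a log2 ratio of −2.00 with no overlap. Kcnc4 (29.8 against 64.2 CPM) and Kcnq3 (26.6 against 59.7 CPM) were lower by log2 ratios of −1.08 and −1.14, also without overlap. In the mixed dissection 0 members were called higher and 2 lower, against 0.251% and 0.125% of all genes. Kcnip1 was lower on 11 of 11 plates (9.38 against 23.3 CPM, log2 ratio −1.23, no overlap). Kcnj5 was lower at 0.140 against 1.61 CPM, a gene read in 2.44% and 6.79% of these cells. The oligodendrocyte list summed to 526 CPM in positive and 104 CPM in negative cells there. Its plates ran from 13.9 to 5253 CPM and from 45.3 to 276 CPM, so high plates weigh heavily in the mean of the positive cells. The part of this list was not tested beyond leaving out cells rich in Mbp. Kcnc4 had a log2 ratio of 0.46 there, against −1.08 in the pDR, and that difference was not tested.

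Trh, the gene of thyrotropin-releasing hormone, marked 98 of 290 pDR cells (33.8%), 97 of which were also Gad-positive. In the pDR 1 member was called higher and 6 lower, against 1.1% and 1.29% of all genes. Of 3 genes listed as dopamine neuron markers (Th, Slc6a3 and Ddc), 1 was also called higher. Their sum was 2817 CPM in positive and 2860 CPM in negative cells. Over all cells Ddc had 2899 CPM and was read in 99.7%, while Th had 0.675 CPM and Slc6a3 0.00112 CPM. The sum is thus nearly all Ddc, which nearly every cell here held, and is no measure of dopamine neurons. The part of these genes was not tested. Kcnip1 had 1.77, 1.39, 0, 0 and 0 CPM in Trh-positive and 20.8, 17.3, 12.5, 20.6 and 12.8 CPM in Trh-negative cells. The sets lay far apart on each plate, with a log2 ratio of −3.45, and a read was present in 13.3% and 54.2% of cells. The fast Kv3 genes Kcnc4 (20.1 against 52.2 CPM, log2 ratio −1.33) and Kcnc2 (11.0 against 27.3 CPM, log2 ratio −1.24) were lower without overlap, and the median log2 ratio of the 4 Kv3 genes was −1.11, where that of all genes was −0.01. In the Trh comparison of the mixed dissection the Kv3 median was −0.27.

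Kcnq3 (23.3 against 48.7 CPM), the BK beta subunit Kcnmb2 (0.120 against 2.04 CPM) and Kcnv1 (0.235 against 1.87 CPM) were lower as well. Leaving out SER12, SER25 or SER39 ended the call of Kcnq3 (−0.99, −0.92 and −0.75), SER39 that of Kcnmb2 (−0.77) and SER40 that of Kcnv1 (−0.93). Kcnh3 was higher, with 1.58, 4.14, 4.43, 4.16 and 7.55 CPM in positive and 1.06, 0.286, 0.978, 0 and 0 CPM in negative cells. Its log2 ratio was 1.87, and the plates did not overlap. The Trh-positive pDR cells thus made up 97 of the 183 Gad-positive ones. Within Gad-positive pDR cells alone, a comparison added after seeing the data, Kcnip1 was lower in the Trh-positive ones by a log2 ratio of −2.60 and Kcnh3 higher by 1.75. Kcnmb2 had a log2 ratio of −1.37, and Kcnv1, Kcnc2, Kcnc4 and Kcnq3 were at −0.96, −0.83, −0.78 and −0.58. There 6 members were called, 3 of them (Kcnip1, Kcnh3 and Kcnmb2) also called among all pDR cells. The share of all genes called within Gad-positive cells was not counted, so the 6 cannot be set against it.

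In the mixed dissection Trh marked 40 cells, and 5 plates with 5 or 6 positive cells each could be compared, so single cells weigh heavily. There 1 member was called higher and 7 lower, against 1.03% and 2.03% of all genes. Kcns1 was higher (4.67 against 0.626 CPM, log2 ratio 1.80, 5 of 5 plates) and Kcnip1 lower (4.44 against 19.4 CPM, log2 ratio −1.91, no overlap). Kcnq3 and Kcnd2 were lower without overlap, at 17.2 against 42.4 CPM and 21.8 against 49.2 CPM. Kcnc4, Kcnj12, Kcnj16 and Kcnh8 were lower with plates that overlapped, by log2 ratios of −1.06 to −1.34. Each lost its call without at least 1 plate, Kcnc4 without SER55, SER60 or SER63 (−0.97, −0.83 and −0.99), Kcnj12 without SER57 or SER63 (−0.94 and −0.87), Kcnj16 without SER63 (−0.95; −1.83 without SER55) and Kcnh8 without SER55 (−0.92; −1.99 without SER63), as did Kcnd2 without SER60 (−0.79). Glial markers moved with this comparison. The oligodendrocyte list summed to 52.5 CPM in positive cells (plates at 16.7 to 108 CPM) and 405 CPM in negative cells (51.3 to 1729 CPM). The astrocyte list summed to 0.228 and 9.49 CPM. The comparison without cells rich in Mbp could not be made, so the part of both lists in the value of the glial gene Kcnj16 was not tested. Among the partner genes Lrrc55 was called higher, with 13.9 against 6.38 CPM.

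**Figure D5:**
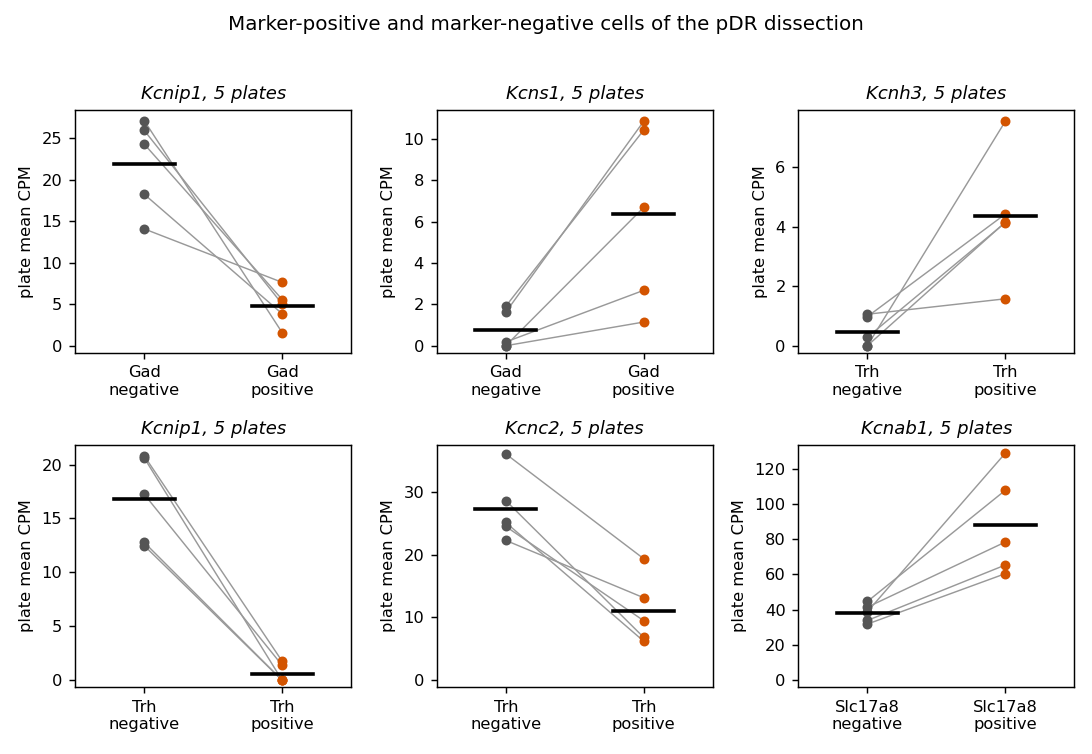
Plate mean CPM (vertical axes, from 0) in marker-negative and marker-positive cells of the 5 pDR plates, with 1 line a plate and bars for the means of plates. Kcnip1 is lower in Gad- and in Trh-positive cells and Kcnc2 in Trh-positive cells, while Kcns1, Kcnh3 and Kcnab1 are higher in Gad-, Trh- and Slc17a8-positive cells.

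Across the 8 marker comparisons, Kcnip1 was called in 5 (0 higher, 5 lower) and Kcnc4 in 4 (0 higher, 4 lower). Kcnab1 and Kcns1 were each called higher in 2 and lower in 2. Kcnq3 was lower in 3, all of them comparisons by Gad or Trh. The calls in Gad- and Trh-positive cells of 1 dissection share cells, so these counts are not independent.

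Within plates, member levels were only weakly related from cell to cell. Over the 27 members with a mean of at least 10 CPM, the correlations of ln(CPM + 1), centred on the plate mean, had a median of 0.04 and ran from −0.20 to 0.28 over 351 pairs and 999 cells. The highest was between Kcnip1 and Kcnq3 and the lowest between Kcnk9 and Kcnd2. These points share library depth, and the values are a description.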

How the data were processed

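Single-cell libraries were prepared with Smart-seq2, which keeps no strand and no molecular identifiers, and sequenced as 75-base read pairs. Per the submitters' processing notes, the authors used bcl2fastq 2.19.0.316, STAR 2.6.1a and HTSeq 0.11.2 on mm10 (GRCm38). The deposited values are CPM per gene and cell, made by the authors and not log-transformed; the annotation release is not given in the sources used here. All values above 0 came out as whole reads (tolerance 0.001) once divided by the smallest step of their cell, and the reads were so recovered. No count test was run, since each dissection is 1 sample. Of 1536 labelled cells, 999 have a column, and the other 537 were not analysed here. No cell was below the authors' minimum of 300 genes or 50000 reads, and no doublet caller was run on cells sorted singly.

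The members, gene lists and comparisons were chosen with earlier results of these data known. CPM was recomputed from recovered reads, and ratios are log2 of mean CPM + 1 with plates weighted equally. Genes named are the called members (at most 12 in each direction), the 3 highest per class per kb, and, whatever their values, Kcnh8, Kcns1 and fixed GIRK, SK, BK, Kv4, KChIP, Kv7, leak, glial and partner genes. Some genes that this rule names are not reported here. Exon lengths and coordinates are from GENCODE M21. The contrast step was tested on simulated data for the Zeb2 comparison with 25522 genes: 66 of 67 genes changed 4-fold and 67 of 67 changed 3-fold were called, as were 4 of 25322 unchanged genes. The changed genes were drawn from those with a mean of at least 5 CPM, and no plate effect or cell subtype was simulated. These rates therefore do not cover changed genes at lower levels, such as Kcnh8 and Kcns1, or real differences between plates and subtypes. Alternatives were a marker threshold of 5 reads or 10 CPM, pseudocounts of 0.1 and 5 CPM, thinning, pooling cells over plates, mean ln(CPM + 1), at least 10 cells per set, cells with at least 500000 reads, no cells with 50 CPM of Mbp, genes with a mean of at least 1 CPM, and leaving out each plate. A dissection comparison without Zeb2-positive cells and a Trh comparison within Gad-positive cells were added after seeing the data. Intervals cover counting error only. Python 3.11.15, NumPy 2.4.6, pandas 2.3.3, SciPy 1.17.1 and matplotlib 3.10.9 were used.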

Additional observations from a re-analysis of the deposited data

How the results depend on the processing

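No paired analysis was possible across samples because the labels number cells and not animals, and the marker comparisons were made within plates. Depth limits genes near 1 read per cell, and CPM + 1 compresses their ratios. None of the 970 log2 ratios of called members under the alternatives changed sign; 58 moved by more than the SD between plates, and 13 of 54 calls held under every alternative. Counts of members called that moved by over 1.5 times follow, with all ranges from leaving out 1 plate. The cause was not tested. With a pseudocount of 5 CPM they were 1 for the dissections, 7 for Zeb2, 2 for Irx2, 0 and 1 for Slc17a8 (mixed dissection and pDR), 0 and 2 for Gad and 3 and 3 for Trh. With 0.1 CPM they were 9 for Irx2, 4 and 13 for Slc17a8, 4 and 12 for Gad and 15 and 14 for Trh. With mean ln(CPM + 1) they were 3 for Irx2 and 1 for Gad in the mixed dissection. For Slc17a8 in the mixed dissection they were 3 from 5 reads or 10 CPM, 2 with 10 cells per set, 0 after thinning, and 2 without cells rich in Mbp or with deep cells only. For Trh there they were 15 from 5 reads and 13 with deep cells. For the dissections they were 2 without cells rich in Mbp, 3 with a mean of at least 1 CPM and 3 without Zeb2-positive cells. Leaving out 1 plate gave 3 to 6 calls for the dissections (3 without SER67), 11 to 13 for Zeb2, 4 to 6 for Irx2, 0 to 3 and 5 to 9 for Slc17a8 (0 without SER60), 2 to 3 and 5 to 8 for Gad, and 7 to 13 and 6 to 10 for Trh (13 without SER64). The median of members detected per cell was 33 without thinning and 17 from 5 reads. For Trh in the mixed dissection 10 CPM, 10 cells per set and the removal of cells rich in Mbp left under 3 plates and were not run.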
